A study of Mus musculus with 14 samples.

Results

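The cyclin-dependent kinase inhibitor genes were examined by H3K27me3 ChIP-seq in mouse primary hippocampal neurons. Neurons with knockdown of the long noncoding RNA NeuID were compared with control neurons. The 7 genes were Cdkn2a, Cdkn2b, Cdkn2c and Cdkn2d of the INK4 family and Cdkn1a, Cdkn1b and Cdkn1c of the CIP/KIP family. A peak of the deposited peak list was assigned to a gene when it overlapped the gene body or the 10 kb on either side of it by at least 1 bp. By this rule 4 of the 7 genes held listed peaks, which numbered 30 of the 23668 peaks in the list. The genes were Cdkn2a with 21 peaks, Cdkn1c with 4, Cdkn2b with 3 and Cdkn2c with 2, and Cdkn2d, Cdkn1a and Cdkn1b had 0.

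The cultures were wild-type (WT) hippocampal neurons prepared from CD1 mouse embryos of mixed sex. All of them received gapmers, antisense oligonucleotides whose DNA centre recruits RNase H to cut the bound RNA, packed in lipid nanoparticles. The 6 control ChIP libraries came from cultures given control gapmers and the 6 knockdown (KD) libraries from cultures given gapmers against NeuID, with 1 input library for each treatment. Which libraries shared an animal, a litter or a culture was not given in the sources used here.

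Cyclin-dependent kinases drive the cell through its division cycle, and the inhibitors hold them back. INK4 proteins bind Cdk4 and Cdk6 and keep them from their D-type cyclins, whereas CIP/KIP proteins bind a wider range of cyclin-kinase complexes. H3K27me3, trimethylation of lysine 27 on histone H3, is laid down by Polycomb repressive complex 2 and marks silent developmental genes, often around CG-rich gene starts. The Cdkn2a-Cdkn2b locus is a classic Polycomb target, known for being silenced in dividing young cells and for losing the mark with ageing and senescence in culture.

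Of each peak the authors deposited the log2 mean of normalized reads in the control group and in the KD group. These are the authors' means. Single libraries were not analysed here, so a value has no spread between replicates, no n and no test beside it. The overall mean that the authors list beside them equals the mean over 6 control and 5 KD libraries, and not over the 12 libraries in the labels. A difference is given as the KD minus the control log2 mean, and differences beyond 1 (more than 2-fold) were counted as a description of size. A group mean listed at 0 stands for at most 1 normalized read, and no difference is given for a peak with such a mean. The counts and medians below do use the listed 0. Over all listed peaks the median difference was -0.02. In the weakest of 5 equal bins of peak strength, the middle 95% ran from -3.12 to 3.14. It was wider in bins 2 and 3, counted from the weakest, at -3.47 to 3.45 and -3.54 to 3.69. In the strongest bin it was narrowest, from -1.81 to 1.68.

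The cell type in the labels was checked against 10 neuronal genes and 10 genes of other lineages, since silent genes of other lineages carry H3K27me3. All 10 genes of other lineages had a start under a listed peak. Of the neuronal genes 2 did, namely Rbfox3, the gene of a neuronal nuclear RNA-binding protein, and Neurod2, the gene of a neuronal transcription factor.

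The DNA before the gene starts shows how unlike these genes are in CG content, so 5 stretches are printed here. They were read 5′ to 3′ along the gene from the RefSeq promoter windows of build GRCm38.p6, with CG dinucleotides in capitals and with bases inside annotated exons left out. The first 2 are the separate starts of Cdkn2a, Ink4a and Arf, and the next is Cdkn2b. Cdkn1b and Cdkn1a are CIP/KIP starts with no listed peak, shown for contrast. Of the matched starts of Cdkn1a, the one with fewer CG is printed. All 3 INK4 stretches lie on the minus strand, at chr4:89282193-89282442 for Ink4a, chr4:89294654-89294869 for Arf and chr4:89311040-89311282 for Cdkn2b. The Cdkn1b and Cdkn1a stretches lie on the plus strand, at chr6:134920151-134920400 and chr17:29090729-29090975.
Ink4a: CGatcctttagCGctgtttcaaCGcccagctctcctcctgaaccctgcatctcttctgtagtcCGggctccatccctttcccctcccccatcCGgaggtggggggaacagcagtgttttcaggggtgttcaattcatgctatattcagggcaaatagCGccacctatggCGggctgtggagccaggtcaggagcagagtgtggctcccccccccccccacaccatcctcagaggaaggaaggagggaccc
Arf: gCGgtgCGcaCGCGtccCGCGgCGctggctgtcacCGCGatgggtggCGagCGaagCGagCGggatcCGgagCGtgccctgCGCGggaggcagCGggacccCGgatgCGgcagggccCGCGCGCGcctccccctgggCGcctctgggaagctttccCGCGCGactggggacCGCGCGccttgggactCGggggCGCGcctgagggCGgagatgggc
Cdkn2b: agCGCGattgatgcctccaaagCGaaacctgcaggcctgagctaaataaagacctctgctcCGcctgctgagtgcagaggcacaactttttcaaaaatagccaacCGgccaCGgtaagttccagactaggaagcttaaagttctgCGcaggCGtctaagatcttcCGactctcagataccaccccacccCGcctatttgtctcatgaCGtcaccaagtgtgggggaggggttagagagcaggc
Cdkn1b: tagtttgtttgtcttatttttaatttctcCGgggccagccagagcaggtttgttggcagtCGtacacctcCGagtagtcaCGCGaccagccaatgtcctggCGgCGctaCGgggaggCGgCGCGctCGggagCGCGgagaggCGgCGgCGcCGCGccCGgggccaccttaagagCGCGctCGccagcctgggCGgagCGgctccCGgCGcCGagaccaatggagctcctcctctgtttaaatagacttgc
Cdkn1a: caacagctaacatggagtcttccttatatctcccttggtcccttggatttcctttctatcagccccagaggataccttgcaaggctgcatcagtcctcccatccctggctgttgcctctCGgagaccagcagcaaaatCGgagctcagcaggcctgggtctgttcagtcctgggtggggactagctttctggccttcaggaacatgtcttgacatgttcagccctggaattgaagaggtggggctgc
The printed stretches hold 7 CG for Ink4a, 35 for Arf, 11 for Cdkn2b, 28 for Cdkn1b and 2 for this start of Cdkn1a.

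CG number and listed peaks were compared at the starts with a promoter window. RefSeq windows of 300 bases, 250 before and 50 after the start, were matched for 6 of the genes and 9 starts, Cdkn1c being without one. The Arf window held 45 CG, a number reached by 1.93% of all 32851 promoter windows, and no base of it lay in a listed peak. The Ink4a window held 12 CG, reached by 39.6% of windows, and all 300 of its bases lay in a peak. The Cdkn2b window held 18 CG, reached by 29.7% of windows, with 191 bases in a peak. Every other window had 0 bases in a peak. These windows held 33 and 8 CG at the 2 starts of Cdkn2c, 30 at Cdkn1b, 22 at Cdkn2d, and 2 and 23 at the 2 starts of Cdkn1a, against a median of 7 over all promoters. With 2 windows in peaks and 7 outside, this is a description of these 9 windows only. It leaves out Cdkn1c, whose starts all lay under a listed peak that was itself rich in CG, with 225 in 2103 bp (10.7 per 100 bp), so CG-rich starts occurred both with and without a listed peak.

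**Figure D1:**
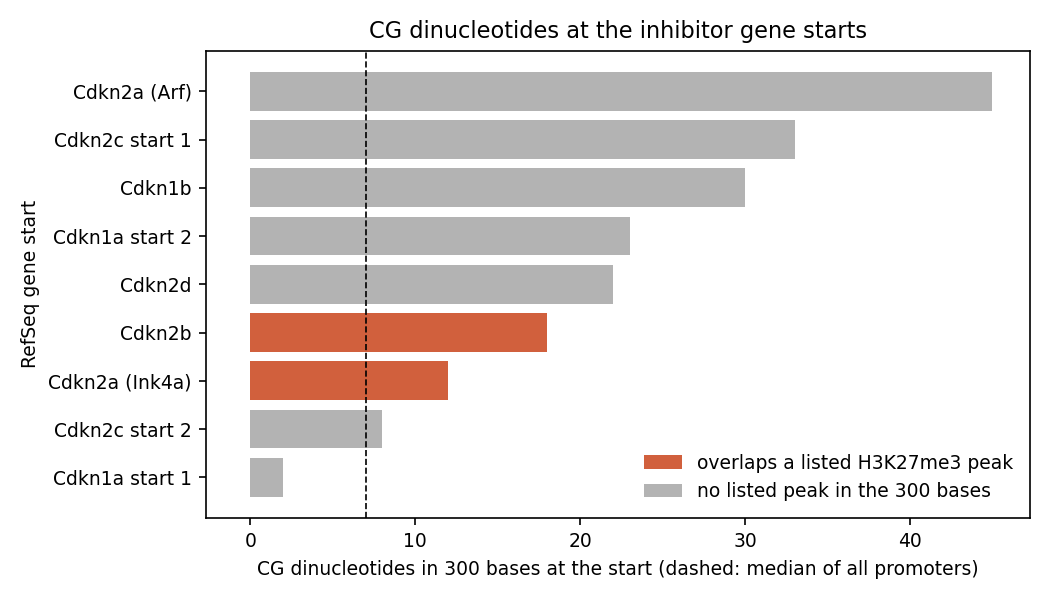
CG dinucleotides (x axis, number in 300 bases) at the 9 matched RefSeq starts of the inhibitor genes (y axis), with the median of all promoters, 7, as a dashed line. The 2 windows that overlap a listed H3K27me3 peak, Cdkn2b and Ink4a, hold 18 and 12 CG, and 5 of the windows that overlap none hold more. Cdkn1c, whose starts lie under a peak with 10.7 CG per 100 bp, has no window here and is not drawn.

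Cdkn2a is at chr4:89274471-89294653 on the minus strand (GENCODE M21, GRCm38). Its Ink4a start gives an inhibitor of Cdk4 and Cdk6, and its Arf start, 12461 bp further upstream, gives a protein that restrains Mdm2 and so stabilizes p53. With 21 listed peaks, Cdkn2a ranked 37th among 21884 protein-coding genes, of which 7304 (33.4%) held a listed peak by the same rule. The peaks covered 16832 bp, or 41.9% of the window, and by this share Cdkn2a ranked 139th. Of the 21 peaks, 15 lay inside the gene body, 5 downstream and 1 upstream.

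The Ink4a start lay under a peak and the Arf start did not. The peak at chr4:89281881-89282675 covered the Ink4a start and its first exon, 126 bp of it coding, and had a control mean of 4.46 and a KD mean of 4.87. That made it 0.41 higher in the KD. The Arf start had its nearest peak 450 bp upstream, at chr4:89295103-89295555, with 3.19 in the control and 2.55 in the KD. This upstream peak held 11.9 CG per 100 bp, above 99.8% of listed peaks in CG density. Just inside the gene, 2 peaks separated by 4 bp had means of 2.75 and 2.07 (chr4:89293686-89294025) and of 3.79 and 3.57 (chr4:89293182-89293681).

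The peaks with the most reads in the locus were wide ones at the other end of the gene, over the exons that both products share and just beyond them. The peak at chr4:89274579-89277222, 2644 bp long and with 378 bp of coding sequence, had 6.29 in the control and 6.68 in the KD, a difference of 0.39. Its downstream neighbour at chr4:89272301-89274164, which lies beyond the gene end over the noncoding gene Gm12606, had 6.22 and 5.71, a difference of -0.51. Per kb of peak, control reads were 29.7 at the former and 40.0 at the latter, against 39.8 at chr4:89289307-89290041 in the Arf intron, so the shared-exon peak led by width and not by density. These peaks over and beyond the shared exons together held 30.6% of the control reads of the Cdkn2a-Cdkn2b locus and summed to 153 normalized reads in the control and 155 in the KD.

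The lower sum of the KD came from the other peaks of the locus. Of the 21 peaks at Cdkn2a, 14 were lower and 7 higher in the KD, with a median difference of -0.57. The 15 peaks inside the gene body had a median difference of -0.22, and their summed KD reads were 88.1% of the control. The 5 downstream peaks, over Gm12606, had a median difference of -0.57 and summed KD reads at 62.2% of the control. Lower by more than 1 were 6 peaks, 4 of them in the gene body and 2 downstream, and 0 were higher by more than 1. The 20.6% of all listed peaks that were lower and the 20.4% that were higher by more than 1 are the background to these counts. Directly upstream of the shared-exon peak, chr4:89277275-89278726 had 5.27 in the control and 3.72 in the KD, a difference of -1.56. In the first intron of the Arf transcript, chr4:89285227-89286219 went from 4.74 to 3.35 and chr4:89282722-89283465, beside the Ink4a start, from 4.38 to 3.32.

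The sharpest reductions were at 3 peaks where the KD mean was close to nothing. At chr4:89290604-89291072, within the Arf intron, the control mean was 3.65 and the KD mean 0.77, a difference of -2.88. Downstream of the gene, chr4:89265033-89265399 had 3.53 and 0.24, a difference of -3.29, and chr4:89267427-89267936 had 3.96 in the control and was listed at 0 in the KD. None of these peaks was in the strongest bin, where differences spread least over the list.

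Other Cdkn2a peaks moved the opposite way, though less. The peak at chr4:89288056-89288769 had 3.26 in the control and 4.26 in the KD, and its difference of 1.00 stayed just inside the limit. Also higher was chr4:89283632-89284405, upstream of the Ink4a start, with 3.65 and 4.40. The weakest Cdkn2a peak, chr4:89287631-89287869, had 1.83 and 2.26. The remaining peaks had differences between -0.98 and 0.17, and among them chr4:89289307-89290041 in the Arf intron went from 4.87 to 4.07.

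**Figure D2:**
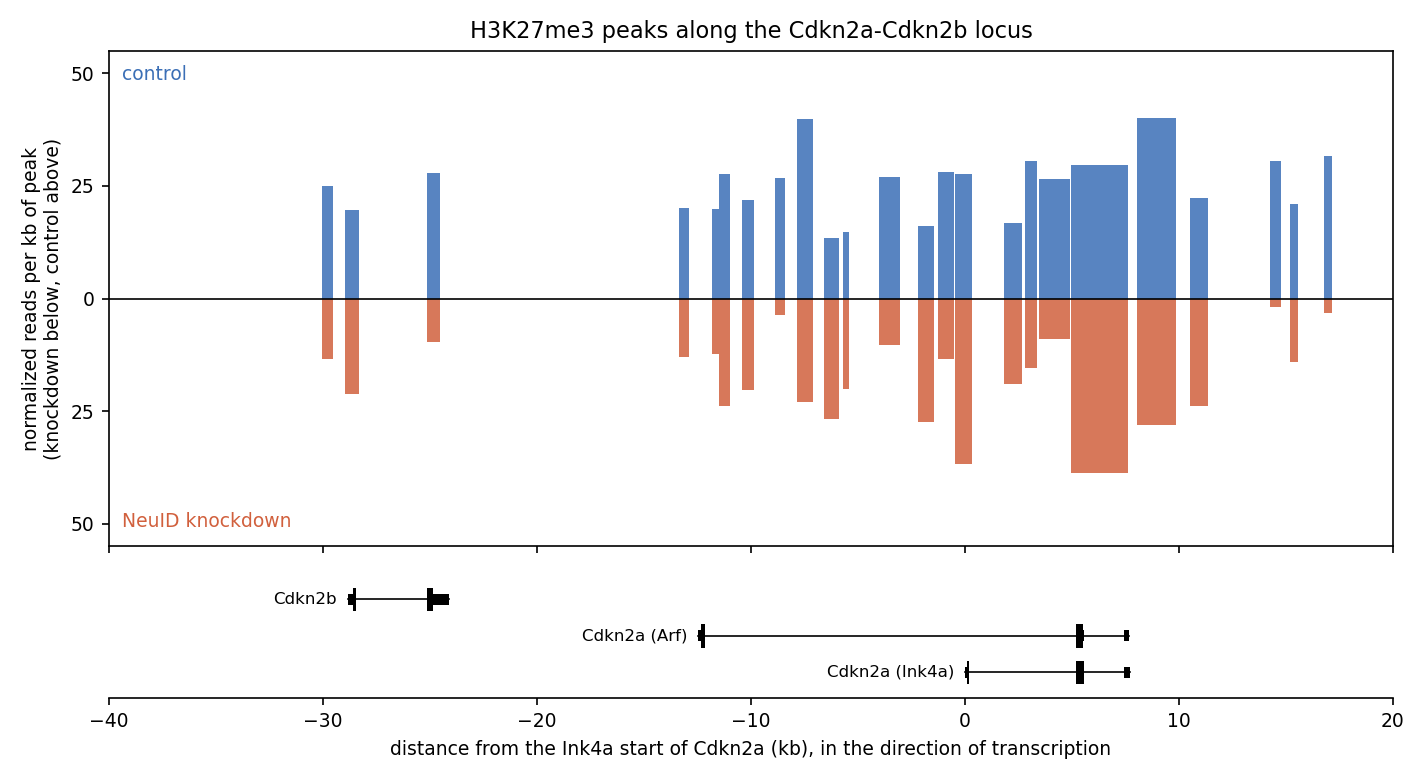
Listed H3K27me3 peaks along the Cdkn2a-Cdkn2b locus, drawn to scale, with normalized reads per kb of peak in the control upward and in the NeuID knockdown downward (y axis) against the distance from the Ink4a start in kb (x axis), and exons as boxes below, taller where coding. The Ink4a start lies under a peak that is higher in the KD, and the Arf start lies in a gap between peaks. Of the 24 peaks, 16 are lower and 8 higher in the KD, without a regular order along the locus.

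Cdkn2b, an inhibitor of Cdk4 and Cdk6 that is induced by transforming growth factor beta, is at chr4:89306299-89311039, with its start 16386 bp upstream of the Arf start. Its start was covered by chr4:89310504-89311173, which had 3.72 in the control and 3.82 in the KD, a difference of 0.11. The other peaks were lower in the KD. Over the last exon, chr4:89306727-89307356 had 4.13 and 2.60, a difference of -1.53, and 709 bp upstream of the start chr4:89311748-89312225 had 3.58 and 2.68, a difference of -0.90. Summed over the gene, normalized reads were 42.7 in the control and 26.6 in the KD.

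Taken as 1 locus, Cdkn2a and Cdkn2b held 24 peaks over 47.2 kb, 39.4% of which lay in peaks. The longest stretch without a peak, 11171 bp, separated the genes. Summed normalized reads were 500 in the control and 394 in the KD, or 78.9% of the control, and per kb of peak 26.9 and 21.2. Without the 2 peaks with the most reads the sums were 347 and 239, or 69.0%. The median difference was -0.60, against -0.02 over all listed peaks, whose summed KD reads were 97.1% of the control. Of the locus peaks 7 (29.2% against 20.6% of all listed peaks) were lower by more than 1, and 0 (against 20.4%) higher. In the strongest bin, which held 14 of the 24, the shares over all listed peaks were 10.4% lower and 8.45% higher.

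The direction was not shared along the locus. Of the 23 pairs of adjacent peaks, 12 had opposite signs and 11 the same sign. Within 100 kb of either gene there was no further listed peak.

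Cdkn2c, an INK4 inhibitor known for its part in the last divisions of neural progenitors, is at chr4:109660876-109667189. Its peaks were short, lay downstream of the gene over the noncoding gene 9630013D21Rik, and differed in opposite directions. The peak at chr4:109654552-109654767 was listed at 0 in the control and had 2.85 in the KD. At chr4:109657065-109657321 the means were 3.40 and 1.74, a difference of -1.66, and with 41.0 control reads per kb this 257 bp peak was the densest of the 30 in the control. The nearer of these was 8051 bp from the closest Cdkn2c start, so neither start of the gene carried a listed peak.

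Cdkn2d, the INK4 inhibitor that persists in mature neurons, is at chr9:21288410-21291407 and had no listed peak in its window. The nearest lay 20362 bp away at chr9:21311769-21312372, with 3.96 in the control and 2.83 in the KD.

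Cdkn1a, the p53 target that arrests cells after DNA damage, is at chr17:29090976-29100727 and had no peak either. A listed peak lay just outside its window, 10068 bp from the gene, with 2.65 in the control and 2.67 in the KD. Cdkn1b, which keeps differentiated neurons out of the cell cycle, is at chr6:134920401-134925513, and the nearest listed peak was 384458 bp away. An unlisted region is one that the authors' peak calling did not report, and its level of H3K27me3 is not known from these values.

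Cdkn1c is the CIP/KIP member that is imprinted, expressed from the maternal copy in a domain with other imprinted genes, and it is at chr7:143458339-143461050 on the minus strand. A single peak of 2103 bp, chr7:143459046-143461148, covered all 5 annotated starts of Cdkn1c and 1080 bp of coding sequence, at 10.7 CG per 100 bp. The control mean was 5.79 and the KD mean 5.67, a difference of -0.12. The peaks do not tell the parental copies apart, and Gm44732, an antisense gene, lies under the same peak.

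Upstream of Cdkn1c 3 smaller peaks differed in both directions. The peak at chr7:143464749-143465422 had 4.60 in the control and 2.97 in the KD, a difference of -1.63. That at chr7:143463344-143463636, the weakest control mean above 0 among the 30 peaks, had 1.27 and 2.47, a difference of 1.19. The last, chr7:143471002-143471668, had 2.70 and 3.34. It began 9952 bp from the gene, just inside the window, and most of its 667 bp lay outside. Summed over the 4 peaks, normalized reads were 88.6 in the control and 74.4 in the KD. The median of the 4 differences had the opposite sign, 0.26. Without the last peak the middle of the remaining differences was -0.12, that of the peak over the starts. The sign of the median at Cdkn1c thus depended on whether the peak at the window edge was counted.

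**Figure D3:**
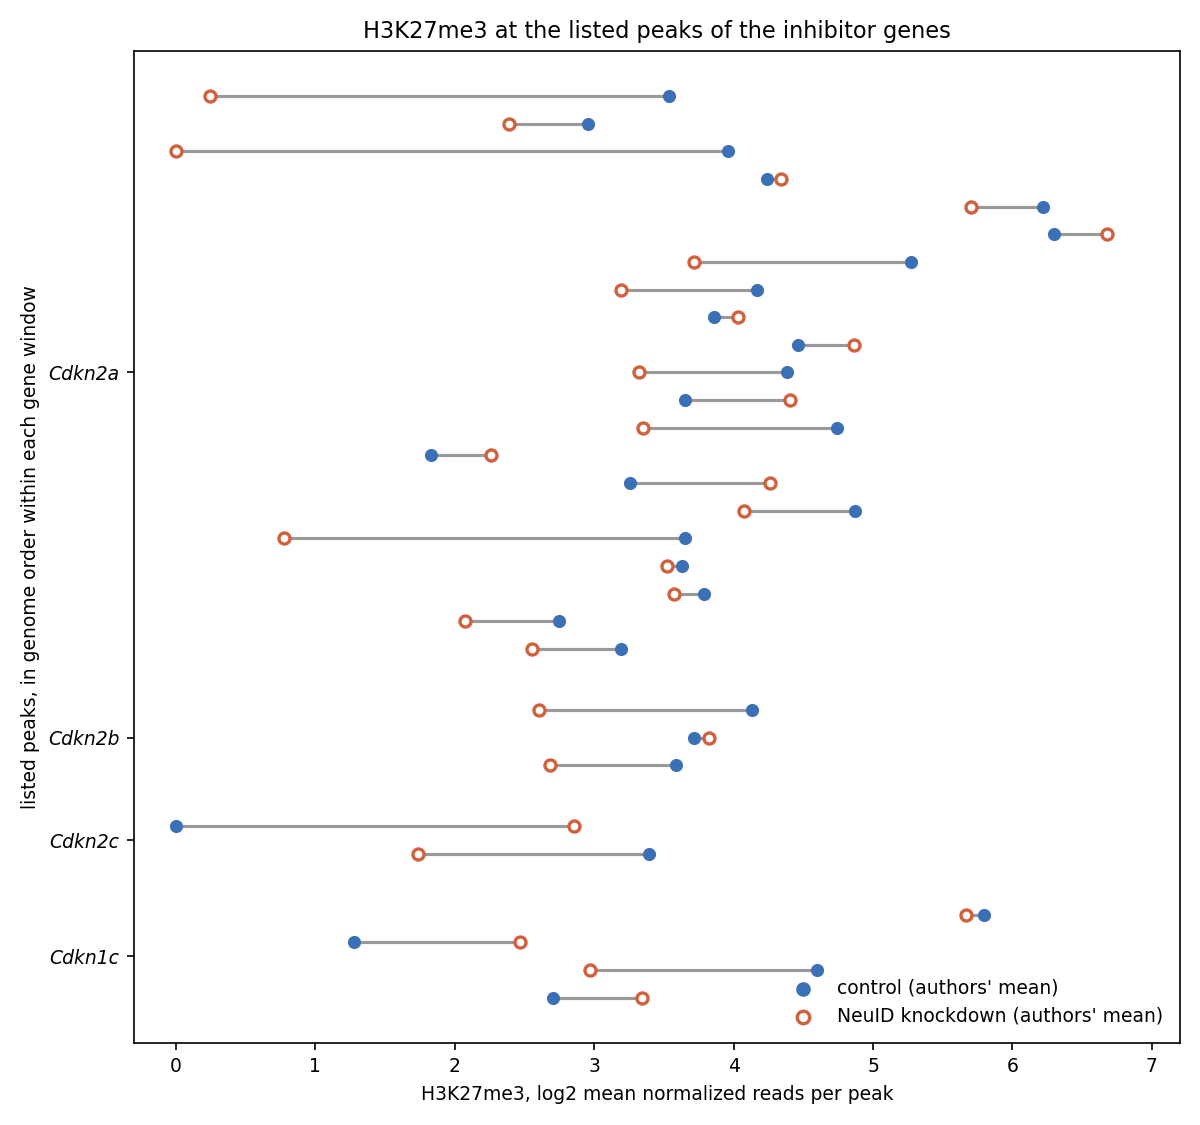
Authors' mean H3K27me3 (x axis, log2 mean normalized reads) in control (filled) and NeuID knockdown (open) at each of the 30 listed peaks (y axis, by gene and in genome order), with a line joining the groups and a mean listed at 0 drawn at 0. At Cdkn2a 14 of 21 lines run to the left, towards a lower KD mean, and the lines at the 2 peaks with the most reads are short, whereas the next in control level falls from 5.27 to 3.72.

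Over all 30 peaks the median control mean was 3.75 and the median KD mean 3.33, with a median difference of -0.54. It was also -0.54 over the 28 peaks with both groups above 0, but -0.17 over peaks touching the gene body alone, -0.22 when weighted by width and -0.32 over those whose overall mean reached 4. Of the 30 peaks, 19 were lower and 11 higher in the KD. Lower by more than 1 were 9 peaks, or 30.0% against the 20.6% of all listed peaks, and higher by more than 1 were 2, or 6.67% against 20.4%. Both shares describe peaks of a few genes, 24 of them from 1 locus, and peaks of a locus are not independent. Summed reads in the KD were 79.8% of the control over these peaks and 97.1% over all listed peaks.

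The peaks over gene starts differed by less than 1. Of 20 annotated starts of the 7 genes, 7 lay under a listed peak, which were the Ink4a start, the Cdkn2b start and the 5 starts of Cdkn1c. The 3 peaks over them had differences between -0.12 and 0.41. All 3 were in the strongest bin, where most listed peaks also stayed within 1. Of all listed peaks in that bin, 10.4% were lower and 8.45% higher by more than 1.

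Peak strength matters for reading these values, because large differences were more frequent among weak peaks throughout the list. In the strongest bin 8.45% of peaks were higher and 10.4% lower by more than 1, whereas 26.9% of the weakest bin were higher by that much. The inhibitor peaks were strong, with 16 of 30 in the strongest bin and 3 in the weakest. Of those 16, 4 were lower and 0 higher by more than 1, and 3 of the 4 were at Cdkn2a and the other upstream of Cdkn1c.

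**Figure D4:**
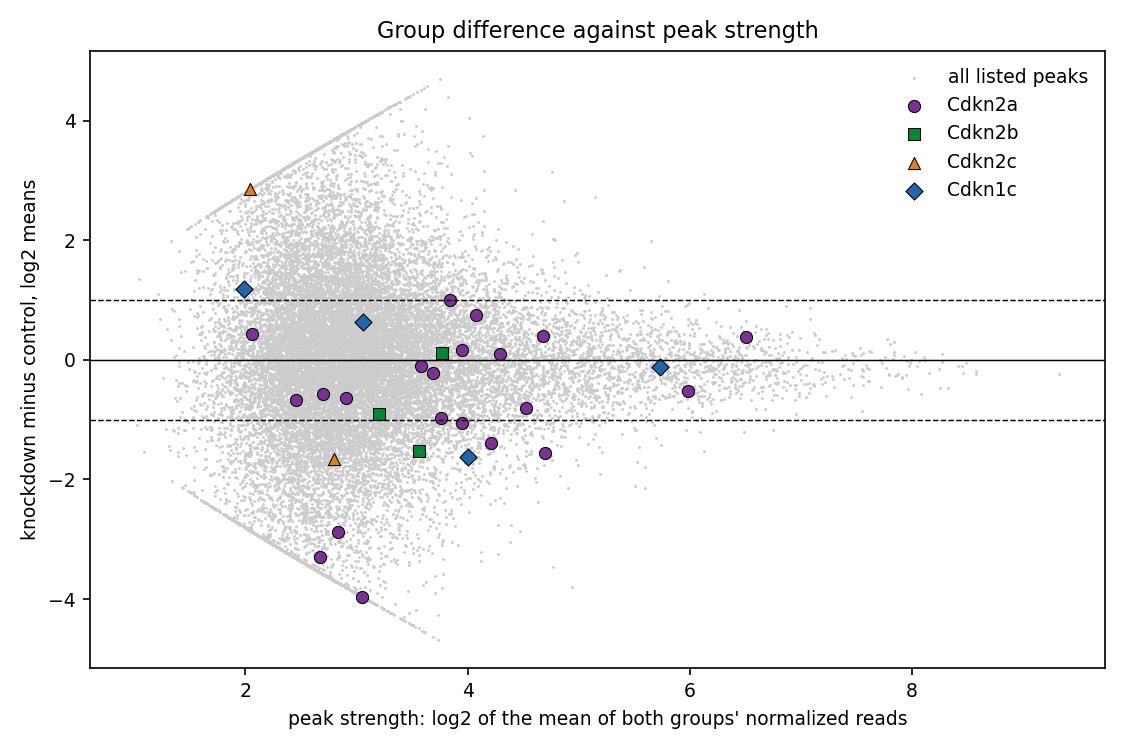
Difference between the groups (y axis, KD minus control log2 mean) against peak strength (x axis, log2 of the mean reads of both groups) for all 23668 listed peaks in grey and the 30 inhibitor peaks in colour, with dashed lines at differences of 1 and -1. Points along the slanting edges are peaks listed at 0 in 1 group. The inhibitor peaks spread over most of the strength range, with 9 below the lower dashed line and 2 above the upper one.

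For a reference among Polycomb targets, the genes of the Hox clusters, which set position along the body axis, held 186 listed peaks. Their median control mean was 5.61 and the median KD mean 5.32, with a median difference of -0.16. Hox peaks were wider, 66.7% of them reaching 1 kb against 4 of the 30 inhibitor peaks. Per kb of peak, normalized reads went from 31.7 to 28.3 at the Hox genes and from 26.9 to 21.2 at the Cdkn2a-Cdkn2b locus. Lower by more than 1 were 8.06% of the Hox peaks and higher 4.84%, and 161 of the 186 were in the strongest bin, where the shares over all listed peaks were 10.4% and 8.45%.

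The rest of the pathway and a set of Polycomb genes were read from 5 lists, which held 38 genes and 26 listed peaks at 10 of them. Their median difference was 0.32, with 4 peaks (15.4% against 20.6% of all listed peaks) lower and 8 (30.8% against 20.4%) higher by more than 1. Summed reads were 437 in the control and 530 in the KD. Most of these reads came from the Polycomb genes, which held 16 of the 26 peaks and 370 of the control reads. Of 9 cyclin genes 2 held peaks, of 4 kinase genes 1, of 11 pocket protein and E2F genes 1, of 3 genes around p53 1, and of 11 Polycomb genes 5. A gene start was covered only at Cdk6, the kinase that INK4 proteins bind, by chr5:3340739-3341587 with 3.97 in the control and 3.37 in the KD. Of the Polycomb peaks, 3 were lower and 3 higher by more than 1.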

How the data were processed

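H3K27me3 was profiled in primary hippocampal neurons, and the sample titles gave the groups. Single-end reads had been aligned to mm10 (bowtie2), broad peaks called (MACS2) and the groups compared (DiffBind) by the authors, and the versions of these tools are not given in the sources used here. How the reads were normalized, how peaks were merged and whether input reads were subtracted were not stated either. The deposited table gives log2 mean normalized reads per peak, over all libraries and for each group, and these authors' values were used as they stand. It also holds the authors' own log2 Fold, p-value and FDR of each peak, which were not used. Depth per library was not analysed here.

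Peaks were intersected with GENCODE M21 gene bodies and 10 kb on each side, with a minimum overlap of 1 bp. Sums were taken over unlogged means. Reads per kb were divided by peak width. CG dinucleotides were counted in RefSeq promoter windows and checked against the GRCm38.p6 sequence. Scripts were tested on simulated data. The tools were pysam 0.24.0, pandas 2.3.3, numpy 2.4.6 and matplotlib 3.10.9 under Python 3.11.15.

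All 7 inhibitor genes were named with every listed peak, or with counts and ranges. From the pathway and Polycomb lists, those genes were named whose start lay under a listed peak. The members, the lists and the limit of 1 were chosen with earlier results of these data known. The alternatives were other flanks, the gene body alone, at least 50% of the peak inside the window, filters on means at 0 and on an overall mean of at least 4, a pseudocount of 1, centring on the median of all peaks and other weightings.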

Additional observations from a re-analysis of the deposited data

How the results depend on the processing

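No paired analysis was possible because each group enters as 1 mean. Of the recomputed values 33 stayed within 0.1 (log2) or 1.5 times (counts) of those reported, 21 moved further and 1 reversed. With the gene body alone there were 18 peaks, with 5 lower and 0 higher by more than 1, a median difference of -0.17, and log2 ratios of summed reads of -0.21 at the Cdkn2a-Cdkn2b locus and -0.12 at Cdkn1c, against -0.34 and -0.25. With an overall mean of at least 4 there were 2 genes and 10 peaks, with 3 lower and 0 higher, a median of -0.32, and ratios of -0.18 and -0.44. Higher by more than 1 was 1 peak with a flank of 5 kb, with both groups above 0, or with a pseudocount of 1. Weighting by width gave a median of -0.22. The plain mean of differences was -0.74 at the locus and 0.0188 at Cdkn1c, where the direction reversed. The mean at Cdkn1c includes the peak that lay mostly outside the window. The Cdkn1c ratio was -0.35 with a flank of 5 kb or with 50% of a peak inside, and -0.38 with 20 kb. Centring raised the peaks higher by more than 1 from 2 to 3. The causes were not tested. Without values per library, no difference can be set against the spread between replicates.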

Other observations

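The surroundings of the inhibitor genes were read out to 100 kb on each side, a distance chosen after the peaks in the closer windows had been seen. Around Cdkn1c, in its imprinted domain, there were 23 listed peaks, 19 of them beyond 10 kb. Their median difference was -0.17 and the log2 ratio of their summed reads -0.23. Of the 23 peaks, 6 were lower and 3 higher in the KD by more than 1. Over all listed peaks 20.6% were lower and 20.4% higher by that much. Around Cdkn2d there were 5 listed peaks, all beyond 10 kb, with summed normalized reads of 97.6 in the control and 106 in the KD. Cdkn1a had 2 such peaks, Cdkn2c none beyond its window and Cdkn1b none at all.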
